A study of Mus with 18 samples.

Results

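Aldehyde dehydrogenases are NAD(P)-dependent enzymes that oxidize aldehydes to carboxylic acids. Of their genes, 10 were followed here in mouse cells labelled as a myoblast line and in mouse muscle tissue: Aldh3a1, Aldh3a2, Aldh1a1, Aldh1a2, Aldh1a3, Aldh1a7, Aldh1b1, Aldh1l2, Aldh2 and Aldh9a1. All 10 were found by symbol among the 21401 genes of both tables. The set was selected on measured values, because Aldh3a1 was picked for its rise, taken as the largest, in the cell libraries labelled LPS-MIC-1. The rank of that rise among all genes is not given here. The values of these 10 genes in those libraries, compared with LPS or control, are therefore a description and carry no test.

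RNA-seq was run on 18 libraries, 3 for each of 3 treatments in 2 systems. The first system is labelled C2C12, a wild type mouse myoblast line, with cells given vehicle (saline by the labels), LPS (lipopolysaccharide, a bacterial cell wall component, at 1 μg/mL), or LPS at the same dose with moringa isothiocyanate-1 (MIC-1), a compound from the moringa tree. The labels put MIC-1 at 10 μM and the treatment with both agents at 24 h. The study's text gives a lower concentration of MIC-1 for the sequenced cells and ethanol as the vehicle. The second system is gastrocnemius, a calf muscle, of wild type male C57BL/6 mice given vehicle, LPS (10 mg/kg into the peritoneum), or MIC-1 (80 mg/kg by gavage, daily for 3 days) followed by LPS, and collected 16 h after LPS. By their labels all cell groups are 1 line. Whether libraries of a group are separate cultures or single mice is not given, so p-values measure only the spread between these libraries.

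The family is known for clearing reactive aldehydes and for making signalling acids. Aldh1a1, Aldh1a2 and Aldh1a3 oxidize retinaldehyde to retinoic acid, and Aldh1a7 is a rodent gene closely related in sequence to Aldh1a1. Aldh2 and Aldh1b1 are mitochondrial enzymes that oxidize acetaldehyde and other small aldehydes. Aldh1l2 is the mitochondrial enzyme that oxidizes 10-formyltetrahydrofolate in one-carbon metabolism. Aldh3a1 oxidizes aromatic and medium-chain aldehydes and is abundant in the cornea, Aldh3a2 oxidizes fatty aldehydes, and Aldh9a1 acts in carnitine synthesis. Aldh3a1 is a known target gene of the aryl hydrocarbon receptor, and isothiocyanates are known activators of the transcription factor Nrf2.

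Expression was measured as FPKM, fragments scaled by transcript length and library size, which allows levels of different genes to be set side by side. Replicates correlated on the log2 scale with r from 0.982 to 0.989 in cells labelled control or LPS, from 0.936 to 0.951 in cells labelled LPS-MIC-1, and from 0.949 to 0.962 in muscle. Reads per library are not given. Steps between the low values put the depth of the cell libraries, relative to the first control, at 0.467 (LPS-MIC-1 replicate 3, the shallowest) to 1.021, and that of the muscle libraries at 0.983 to 1.12. Median-ratio factors were equal in all libraries (1.015 in cells, 1.006 in muscle), so depth here means the relative factor by which values were scaled. It can differ from total reads where groups differ in composition.

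Cell type markers went against the label in 6 of the 9 cell libraries. In the libraries labelled control, the median of 12 macrophage genes was between 674 and 699 FPKM, and in those labelled LPS it was between 419 and 430 FPKM, while the median of 9 myoblast genes was at most 0.101 FPKM in both. In the libraries labelled LPS-MIC-1, the macrophage median was between 0.192 and 10.3 FPKM and the myoblast median between 49.5 and 56.7 FPKM. A list of Y-linked genes and Xist also differed. Of its 5 genes, 4 were over 1 FPKM in each library labelled control or LPS, and 1 in each labelled LPS-MIC-1. The groups are therefore named by their labels below, and any difference between LPS-MIC-1 and the other cell groups cannot be told apart from these differences in marker genes. The libraries labelled LPS and control both had high macrophage and low myoblast medians, but other lists differed between them. The summed level of 7 neutrophil genes was 4.66 to 5.84 FPKM in control and 42.4 to 46.3 in LPS, and that of 7 adipocyte genes 2.10 to 2.86 and 63.7 to 74.96 FPKM, with 1 adipocyte gene over 1 FPKM in each library. Their part in the differences between LPS and control was not tested. Low levels of genes typical of another group were also seen, and their origin was not tested. In LPS replicate 3, 73 of 84 genes of the LPS-MIC-1 profile exceeded 0.1% of their LPS-MIC-1 level, with a median of 0.233%, and LPS-MIC-1 replicate 1 carried a median of 2.80% of 28 genes of the LPS profile. In muscle, fibre markers were abundant in every library, with a median of 16170 to 19870 FPKM over 12 genes.

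**Figure D1:**
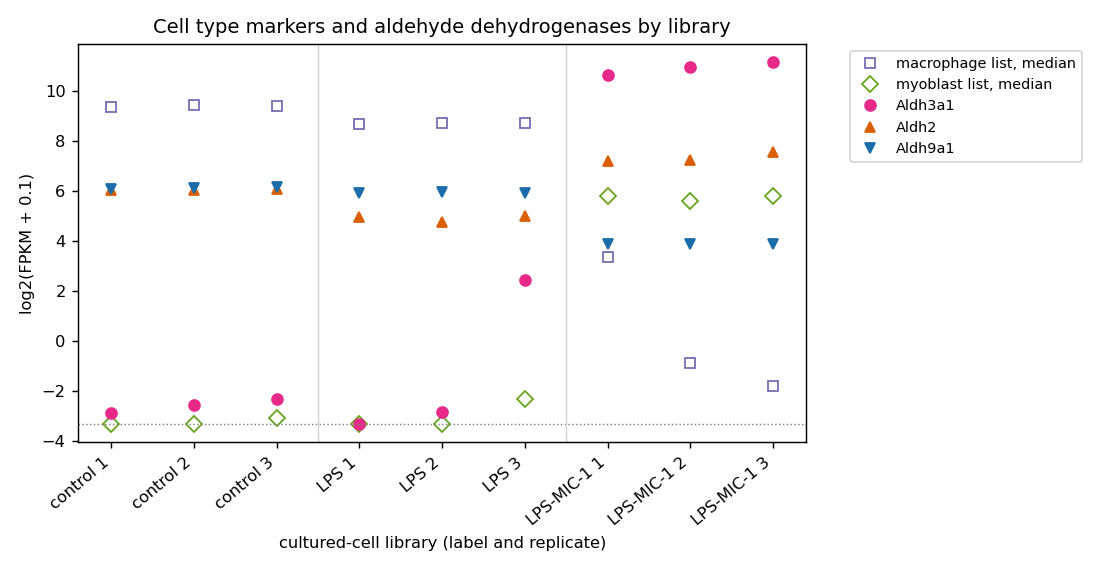
Level of Aldh3a1, Aldh2 and Aldh9a1 and the median of the macrophage list (12 genes) and the myoblast list (9 genes) in each of the 9 cell libraries, on a log2(FPKM + 0.1) axis; the dotted line is 0 FPKM. The myoblast median and Aldh3a1 are high in the 3 libraries labelled LPS-MIC-1, where the macrophage median is at most 10.3 FPKM.

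Differences were computed on log2(FPKM + 0.1), which understates the change of genes near 0, for the 10877 genes in cells and 9475 in muscle with a mean over 1 FPKM. A gene was called when its absolute log2 difference exceeded 1 and its adjusted p, from limma with Benjamini-Hochberg adjustment over all those genes, was under 0.001 in cells or 0.05 in muscle. In cells 6 of the 10 members passed the filter and in muscle 5 did. The members that passed through a high level in a single group had to differ between groups.

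Aldh3a1 was among the most abundant genes of the cell libraries labelled LPS-MIC-1 and nearly silent elsewhere. It measured 1597, 2042 and 2313 FPKM in the 3 LPS-MIC-1 libraries, where it ranked between 54 and 78 among all genes. The control libraries held 0.0355, 0.0701 and 0.104 FPKM, which the steps between low values resolve as 1, 2 and 3 reads. The LPS libraries held 0, 0.0422 and 5.37 FPKM. The first of these is no read and the second 1 read, so that only LPS replicate 3 stood above the level of single reads. Its value was 0.271% of the LPS-MIC-1 mean, beside a median of 0.233% over 84 genes of the LPS-MIC-1 profile in that library. Whether the value reflects expression in those cells was not tested. Every LPS-MIC-1 library lay above every other cell library. The log2 difference was 12.17 (SE 1.33) against LPS and 13.52 (SE 1.33) against control, and it depended on the pseudocount and on LPS replicate 3. Against LPS it was 10.03 with a pseudocount of 1 and 14.01 without LPS replicate 3.

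**Figure D2:**
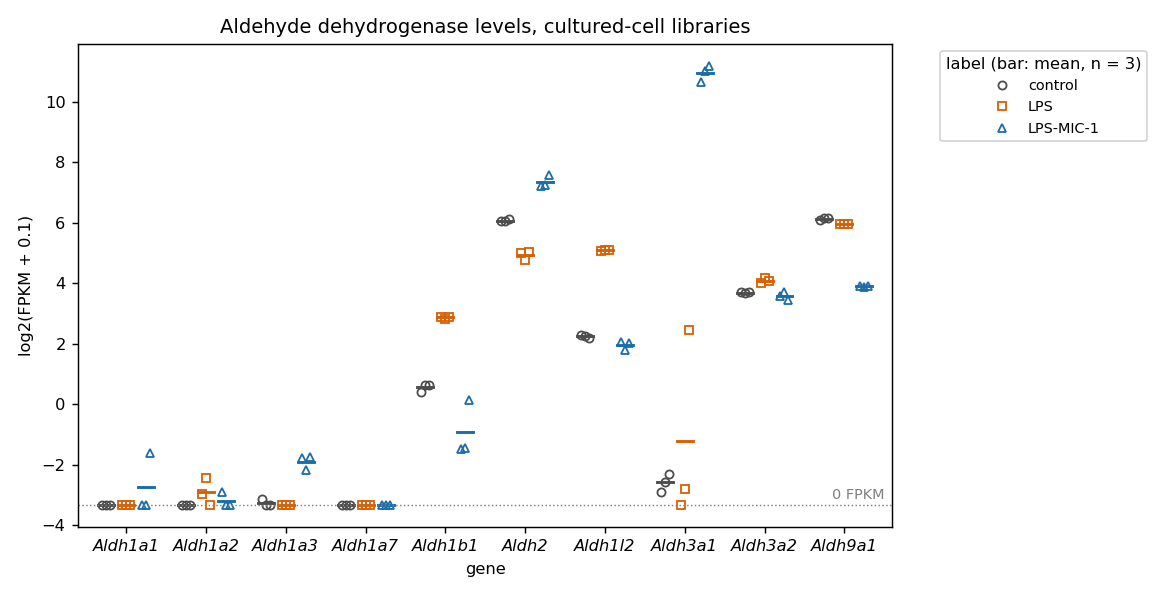
Level of the 10 aldehyde dehydrogenases in the 9 cell libraries on a log2(FPKM + 0.1) axis, with a symbol per library and a bar at the mean of 3; the dotted line is 0 FPKM. Aldh3a1 reaches 1597 to 2313 FPKM in LPS-MIC-1, Aldh1b1 and Aldh1l2 are highest in LPS, and Aldh9a1 is lowest in LPS-MIC-1.

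The genes most like Aldh3a1 over the 9 cell libraries, by Pearson correlation of log2(FPKM + 0.1), were Prl2c3 (r = 0.9991), Ly6a (0.9989), Slurp1 (0.9986), Cck (0.9983) and Aqp5 (0.9981). Prl2c3, a proliferin, measured 1223 ± 196 FPKM (SD, n = 3) in LPS-MIC-1, and Cck, the cholecystokinin precursor, 1599 ± 497 FPKM. In all, 39 genes had r over 0.99 with Aldh3a1. These 9 points fall into a high and a low cluster of libraries, and LPS replicate 3 has low levels of many genes of the LPS-MIC-1 profile. The correlations therefore describe only that pattern.

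Among the mitochondrial acetaldehyde enzymes, Aldh2 was highest and Aldh1b1 lowest in the cells labelled LPS-MIC-1. Aldh2 measured 147, 151 and 189 FPKM there, against 65.98, 65.8 and 68.7 in control and 31.7, 27.3 and 32.6 in LPS. The 3 groups did not overlap, in the order LPS, control, LPS-MIC-1. The log2 difference of LPS-MIC-1 was 2.41 (SE 0.105) against LPS and 1.27 (SE 0.105) against control, the latter 0.89 under quantile normalization. Aldh1b1 measured 0.263, 0.267 and 1.014 FPKM in LPS-MIC-1, 1.23, 1.45 and 1.45 in control and 7.24, 7.01 and 7.33 in LPS. Again the groups did not overlap, although LPS-MIC-1 replicate 3, the shallowest library, lay well above the other LPS-MIC-1 libraries. The log2 difference of Aldh1b1 between LPS-MIC-1 and LPS was -3.78 (SE 0.3995), and -2.47 with a pseudocount of 1. The genes most like Aldh1b1 over the 9 cell libraries were Cdkn2aipnl (r = 0.9946), Dnajb12 (0.9943) and Ndfip1 (0.9926), and 5 genes had r over 0.99.

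Aldh1l2, the mitochondrial folate enzyme, was high in the LPS libraries alone. Its values were 33.6, 34.0 and 34.4 FPKM in LPS, 4.82, 4.72 and 4.42 in control and 4.07, 3.39 and 3.95 in LPS-MIC-1. The log2 difference between LPS-MIC-1 and LPS was -3.13 (SE 0.0838), and between LPS-MIC-1 and control -0.29 (SE 0.0838), the latter -0.13 under quantile normalization. LPS-MIC-1 and control did not overlap, but the distance between them was small beside that to LPS.

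Aldh9a1, the carnitine enzyme, was the most evenly measured member. It held 68.0, 70.4 and 71.5 FPKM in control, 61.7, 62.3 and 61.8 in LPS, and 14.8, 14.6 and 14.9 in LPS-MIC-1. The level in LPS-MIC-1 was 4.20-fold below LPS, a log2 difference of -2.06 (SE 0.0358). Aldh3a2, the fatty aldehyde enzyme, moved least. It measured 12.9, 12.6 and 12.9 FPKM in control, 15.9, 17.8 and 16.7 in LPS and 11.7, 13.1 and 10.8 in LPS-MIC-1, where it overlapped control and lay below LPS by 0.50 on the log2 scale (SE 0.0800).

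The retinaldehyde enzymes were near or at 0 in the cell libraries and did not pass the filter. Aldh1a1 was listed at 0 in 8 of 9 libraries and at 0.231 FPKM in LPS-MIC-1 replicate 3, the shallowest. Aldh1a7 was listed at 0 in all 9. Aldh1a2 was seen in LPS replicates 1 and 2 (0.0285 and 0.0857 FPKM) and in LPS-MIC-1 replicate 1 (0.0335 FPKM), on at most 3 reads each. Aldh1a3 measured 0.193, 0.122 and 0.199 FPKM in LPS-MIC-1, on 6 to 9 reads, against 0 in every LPS library and a single read in 1 control library. At this depth its level in LPS-MIC-1 was above the other groups but under 0.2 FPKM.

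As a description only, since these libraries chose the genes, the thresholds were passed by 5 of 6 members against LPS (Aldh3a1 and Aldh2 higher, Aldh1b1, Aldh1l2 and Aldh9a1 lower) and by 3 of 6 against control (Aldh3a1 and Aldh2 higher, Aldh9a1 lower). Of all genes tested, 49.9% were called against LPS (24.3% higher and 25.6% lower) and 43.3% against control (21.1% higher and 22.1% lower). Without overlap between groups were 6 of 6 members against LPS and 5 of 6 against control, where 85.5% and 83.0% of all genes were, and nothing is read from these counts. Both comparisons share the LPS-MIC-1 libraries.

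LPS against control in the cells was not used to choose the genes. Aldh1l2 rose 7.31-fold, from 4.65 ± 0.205 to 34.0 ± 0.439 FPKM (SD, n = 3), with a log2 difference of 2.84 (SE 0.0838, limma adjusted p = 9.1e-08). Aldh2 fell, from 66.8 ± 1.63 to 30.5 ± 2.84 FPKM, by 1.13 on the log2 scale (SE 0.105, adjusted p = 3.25e-05). These were the 2 members called of 6 tested, 1 in each direction, where 20.9% of all genes tested were called, 10.9% higher and 10.0% lower.

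Aldh1b1 showed a difference between LPS and control of 2.31 on the log2 scale (SE 0.3995), with 7.20 ± 0.166 against 1.38 ± 0.129 FPKM. The gene passed the filter on level only through the LPS libraries, so this difference is a description and carries no test. It was not among the calls. With a pseudocount of 1 (1.79) and without LPS-MIC-1 replicate 3 (2.31) it was, although that library enters only through the shared estimate of the spread. Aldh3a2 differed by 0.39 (SE 0.0800, adjusted p = 0.00301) and Aldh9a1 by -0.17 (SE 0.0358, adjusted p = 0.0029), both far under the fold threshold, and both without overlap between LPS and control. For Aldh3a1 the difference was 1.35 (SE 1.33) and it rested on LPS replicate 3, since without that library it was -0.49. Aldh3a1 passed the filter on level only through the libraries labelled LPS-MIC-1, so this difference carries no test either. In 5 of the 6 tested members the 3 LPS libraries did not overlap the 3 controls, as in 79.4% of all genes tested.

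In muscle the members stood at other levels than in the cells, and Aldh3a1 was near 0. The tables of cells and muscle were normalized separately, so levels are set side by side without a test. Aldh1a1 and Aldh2 were the most abundant members in control muscle, with 10.7 ± 1.26 and 11.2 ± 0.525 FPKM. Aldh9a1 followed with 4.04 ± 0.230 FPKM, Aldh3a2 with 2.68 ± 0.607 and Aldh1a2 with 1.497 ± 0.464. Aldh1l2, Aldh1a3, Aldh1a7, Aldh1b1 and Aldh3a1 had means under 1 FPKM over the 9 libraries. In control muscle Aldh1a1 and Aldh2 overlapped, while each was above Aldh9a1 in every library, and Aldh9a1 was above Aldh3a2 in every library.

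**Figure D3:**
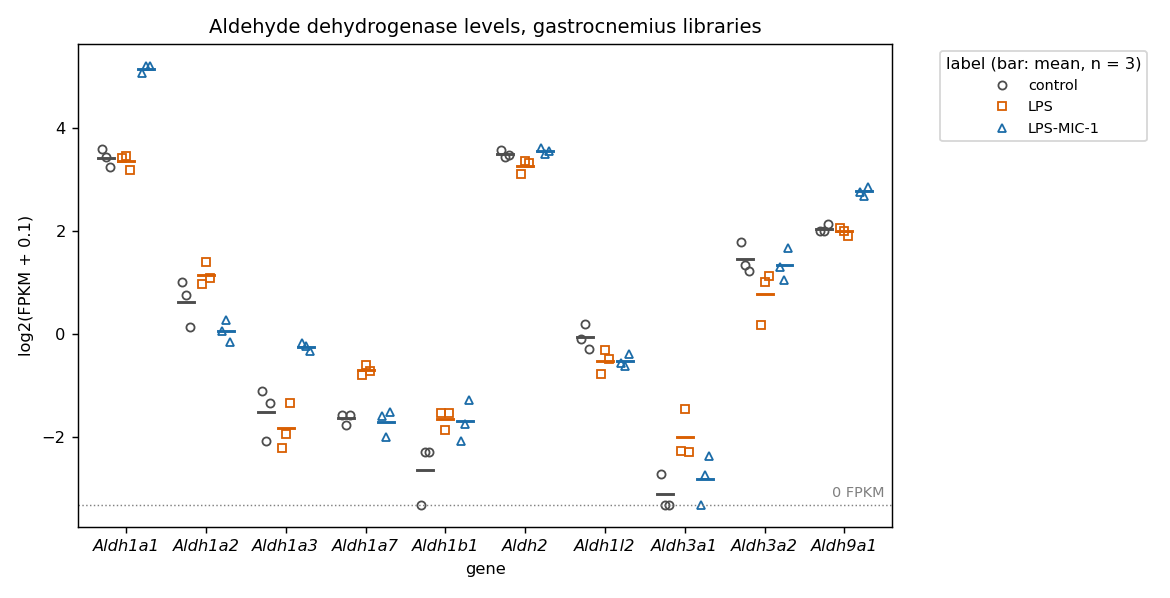
Level of the 10 aldehyde dehydrogenases in the 9 gastrocnemius libraries on a log2(FPKM + 0.1) axis, with a symbol per library and a bar at the mean of 3; the dotted line is 0 FPKM. The 3 LPS-MIC-1 libraries stand above the other 6 for Aldh1a1, Aldh1a3 and Aldh9a1, and Aldh3a1 is at most 0.265 FPKM throughout.

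LPS alone left no member called in muscle. The largest of the 5 tested differences was that of Aldh3a2, -0.68 on the log2 scale (SE 0.285, limma adjusted p = 0.153). Its values were 3.37, 2.43 and 2.24 FPKM in control and 1.03, 1.90 and 2.08 in LPS, so that LPS lay below control in every library. Aldh2 differed by -0.22 (SE 0.0776, adjusted p = 0.093) and Aldh1a2 by 0.52 (SE 0.2503, adjusted p = 0.207). At an unadjusted p under 0.05, 2 members passed (Aldh2 and Aldh3a2), and 0 did so with the fold required. Of all genes tested in muscle, 1.25% were called in this comparison, 0.654% higher and 0.591% lower. The groups did not overlap for 2 of the 5 members, against 36.5% of all genes.

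Aldh1a1, the cytosolic retinaldehyde enzyme, had the largest rise on the log2 scale among the 5 members tested in muscle with MIC-1. It measured 33.5, 36.7 and 37.0 FPKM in LPS-MIC-1, against 10.6, 10.9 and 9.03 in LPS and 12.0, 10.7 and 9.46 in control. The LPS-MIC-1 libraries lay far above both other groups, which overlapped each other. The mean was 3.52-fold that of LPS, a log2 difference of 1.81 (SE 0.101, limma adjusted p = 1.58e-06), and 3.34-fold that of control (1.73, SE 0.101, adjusted p = 1.95e-06). Genes most like it over the 9 muscle libraries were Car4 (r = 0.9987), Myo1e (0.9968) and Spsb1 (0.9965), and 46 genes had r over 0.99. The libraries again form a high and a low cluster.

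Aldh1a2, which makes retinoic acid from the same substrate, moved the other way. It measured 0.940, 1.11 and 0.796 FPKM in LPS-MIC-1, 1.86, 2.54 and 2.02 in LPS and 1.91, 1.58 and 0.996 in control. LPS-MIC-1 lay below LPS in every library, by 1.10 on the log2 scale (SE 0.2503, adjusted p = 0.00578), and overlapped control (-0.57, adjusted p = 0.0804). The difference from LPS was near the fold threshold, which it missed without LPS replicate 2 (-0.97, adjusted p = 0.0249), without LPS-MIC-1 replicate 3 (-0.99, adjusted p = 0.0206) and with a pseudocount of 1 (-0.69, adjusted p = 0.00504).

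Aldh9a1 rose less than 2-fold. Its values were 6.66, 6.35 and 7.20 FPKM in LPS-MIC-1, 4.09, 3.93 and 3.64 in LPS and 3.91, 3.89 and 4.30 in control, and the LPS-MIC-1 libraries did not overlap the rest. The log2 difference was 0.78 against LPS (SE 0.0790, adjusted p = 5.83e-05) and 0.72 against control (SE 0.0790, adjusted p = 8.48e-05), past the p threshold but under the fold. Aldh2 differed from LPS by 0.28 (SE 0.0776, adjusted p = 0.0138), or by 0.15 under quantile normalization (adjusted p = 0.125), and from control by 0.06 (SE 0.0776), the latter -0.08 under quantile normalization. Aldh3a2 differed from LPS by 0.57 (SE 0.285, adjusted p = 0.121), with 2.35, 1.97 and 3.10 FPKM in LPS-MIC-1, and the groups overlapped.

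Of the family 2 of 5 tested members were called between LPS-MIC-1 and LPS in muscle, Aldh1a1 higher and Aldh1a2 lower, where 15.1% of all genes tested were called (9.67% higher and 5.44% lower). The groups did not overlap in 4 of the 5, against 64.2% of all genes. Between LPS-MIC-1 and control 1 of 5 was called, where 15.5% of all genes tested were (9.33% higher and 6.12% lower), and 2 of 5 did not overlap, against 64.6%. These comparisons share the LPS-MIC-1 libraries. Across all genes, 64.0% of the calls between LPS-MIC-1 and LPS were higher, and 53.9% under quantile normalization.

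Marker sums of several cell types differed between the muscle groups, some of them through few genes. The summed level of 12 macrophage genes was 19.1 to 21.9 FPKM in control, 24.4 to 28.1 in LPS, and 41.2, 38.1 and 203.5 in the LPS-MIC-1 libraries, with at most 2 of the 12 at 0 in any library. Without LPS-MIC-1 replicate 3 the difference of Aldh1a1 from LPS was 1.78 (limma adjusted p = 1.91e-05). The macrophage sums of replicates 1 and 2 also lay above every LPS library, so leaving out replicate 3 does not remove this difference between the groups. The summed level of 7 adipocyte genes was between 287 and 291 FPKM in control, between 219 and 241 in LPS, and between 315 and 343 with MIC-1. Only 1 or 2 of these 7 genes were over 1 FPKM in any muscle library, so the sum rests on them. For 6 hepatocyte genes the sums were 1.34 to 1.65, 3.94 to 4.83 and 6.14 to 6.90 FPKM in the same order, and for 12 fibre genes they were 243300 to 248300, 230700 to 234300 and 184400 to 198900 FPKM. For 8 endothelial genes the sums were 131 to 134, 84.4 to 88.4 and 107 to 116 FPKM, and for 7 neutrophil genes they were 1.85 to 2.88, 1.68 to 2.24 and 11.4 to 17.3 FPKM. At most 3 hepatocyte genes were over 1 FPKM in any library. Of the neutrophil genes 1 was in control and LPS, and 3 to 4 with MIC-1. Their part in the differences of the aldehyde dehydrogenases was not tested. In tissue, fewer cells of a type and less RNA per cell cannot be told apart.

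**Figure D4:**
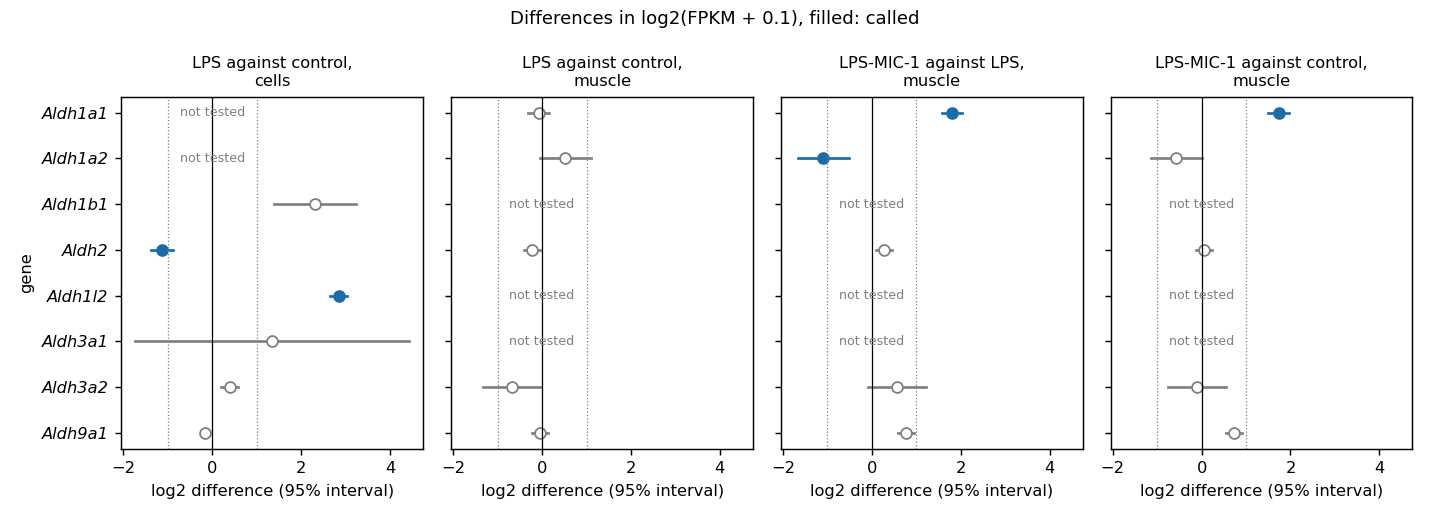
Log2 differences of the members with 95% intervals, in the 4 comparisons that did not choose the genes (1 in cells, 3 in muscle); filled blue points were called, open grey points were not, and dotted lines mark differences of 1 in either direction. In muscle Aldh1a1 is at 1.81 and 1.73 in the LPS-MIC-1 comparisons and the other tested members lie between -1.10 and 0.78. In cells Aldh1b1 and Aldh3a1 each passed the filter on level through a single group, so their intervals there are a description.

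The remaining muscle values rested on few reads. Aldh1a3 measured 0.781, 0.754 and 0.694 FPKM in LPS-MIC-1 on 34 to 35 reads, against 0.114, 0.161 and 0.295 in LPS and 0.363, 0.135 and 0.297 in control on 5 to 16 reads. With no filter on level, its log2 difference was 1.59 against LPS (limma adjusted p = 0.00463) and 1.26 against control (adjusted p = 0.0133). Aldh1a7 was highest in LPS, with 0.475, 0.557 and 0.511 FPKM on 12 to 14 reads, against 0.195 to 0.237 FPKM in control and 0.149 to 0.247 in LPS-MIC-1 on 4 to 7 reads. In the same fit it differed by 0.93 between LPS and control (adjusted p = 0.0266) and by -1.003 between LPS-MIC-1 and LPS (adjusted p = 0.00431). Reads of Aldh1a7 and Aldh1a1 can be hard to separate because the sequences are so alike, and how the authors' counting divided them is not known, so the low values of Aldh1a7 are uncertain.

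Aldh3a1, at 1597 FPKM or more in the cells labelled LPS-MIC-1, was at 0, 0.0495 and 0.0938 FPKM in LPS-MIC-1 muscle, on 0 to 2 reads. In LPS muscle it measured 0.105, 0.265 and 0.105 FPKM on 2 to 5 reads, and in control a single read in 1 of 3 libraries. LPS exceeded both other groups in every library, but by a few reads, and with no filter the difference from control was 1.11 (adjusted p = 0.0909). Aldh1b1 held at most 0.105 FPKM in control, between 0.176 and 0.245 in LPS, and between 0.137 and 0.313 with MIC-1. Aldh1l2 held between 0.721 and 1.037 FPKM in control, between 0.481 and 0.711 in LPS, and between 0.549 and 0.667 with MIC-1. For Aldh1l2 the LPS libraries lay below control in muscle, whereas they lay above control in the cells.

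Set within the whole family, Aldh3a1 was the main transcript in the cells labelled LPS-MIC-1. The 10 members and 10 further aldehyde dehydrogenase genes found in the tables (Aldh3b3 was not matched) summed to between 343 and 345 FPKM in control, between 283 and 293 in LPS, and between 1839 and 2601 with MIC-1. Aldh3a1 made up 86.9 to 89.3% of the sum in LPS-MIC-1, and without it the sum was 241 to 288 FPKM. In control the largest shares belonged to Aldh3b1 with 23.4% ± 0.320 (SD, n = 3), Aldh9a1 with 20.3% ± 0.598 and Aldh2 with 19.4% ± 0.529. In LPS, Aldh1l2 took 11.9% ± 0.125 of the sum against 1.35% ± 0.0558 in control, and Aldh2 took 10.7% ± 0.884.

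Muscle drew on another part of the family. Its sum was between 105 and 109.5 FPKM in control, between 101 and 104 in LPS, and between 178 and 188.5 with MIC-1. Aldh4a1, which degrades proline, and Aldh6a1, which degrades valine, held 29.1% ± 0.614 and 24.2% ± 1.17 of the control sum. In LPS-MIC-1 Aldh6a1 held 41.9% ± 2.08 and Aldh1a1 19.7% ± 1.02, against 9.97% ± 0.966 for Aldh1a1 in control.

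**Figure D5:**
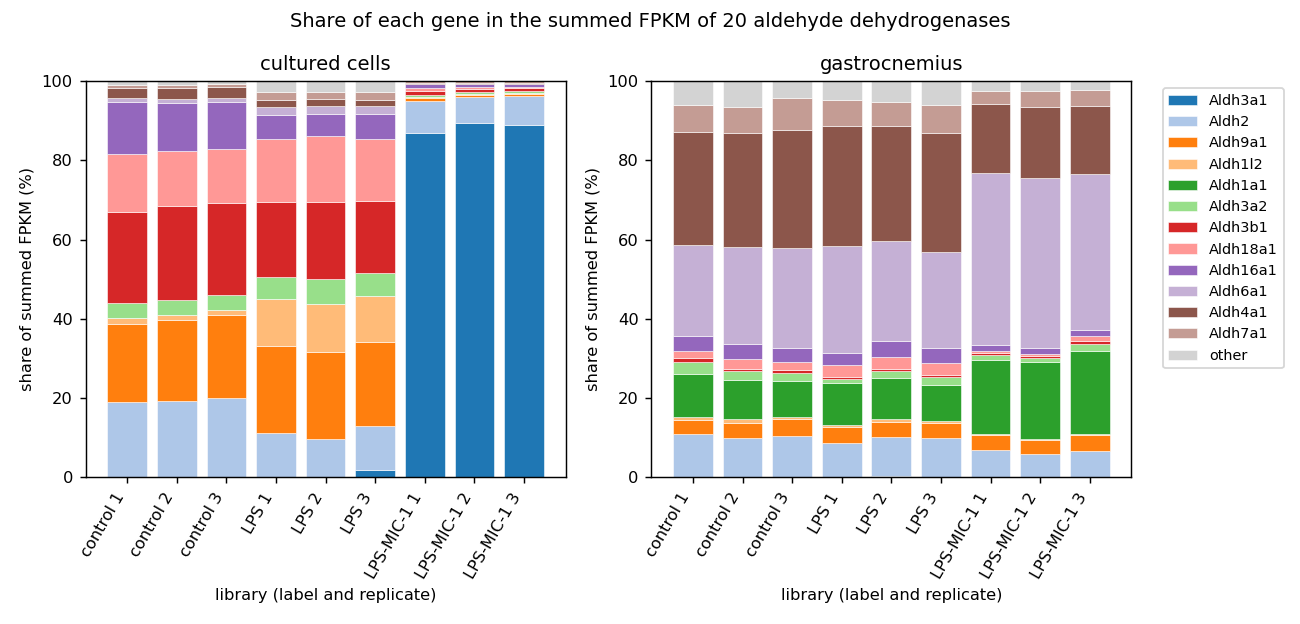
Share of each gene in the summed FPKM of 20 aldehyde dehydrogenases, in percent, for each of the 9 cell libraries (left) and 9 gastrocnemius libraries (right); grey holds the genes not named in the legend. Aldh3a1 fills 86.9 to 89.3% of the cell bars labelled LPS-MIC-1, and Aldh6a1 and Aldh1a1 widen in the LPS-MIC-1 muscle bars.

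Of the further aldehyde dehydrogenases, 6 were tested in cells and 7 in muscle. In cells 1 of the 6 was called between LPS and control, where 20.9% of all genes tested were. This was Aldh16a1, which fell by 1.31 on the log2 scale (SE 0.0857, limma adjusted p = 4.52e-06), from 42.8 ± 2.13 to 17.2 ± 1.03 FPKM. Between LPS-MIC-1 and LPS, Aldh18a1, which starts proline synthesis, differed by -1.95 (SE 0.0566) and Aldh3b1 by -1.57 (SE 0.0607). Aldh7a1, which acts in lysine degradation, was highest in LPS-MIC-1, with 7.83 ± 0.368 FPKM against 5.43 ± 0.192 in LPS and 2.73 ± 0.109 in control. In muscle none of the 7 was called between LPS and control by limma, where 1.25% of all genes tested were. Aldh1l1 alone passed an unadjusted p under 0.05. It passed the filter on level only through the control libraries, so this difference is a description and carries no test. Its mean there was 1.85 FPKM, and both other groups had means under 1 FPKM. Between LPS-MIC-1 and LPS 1 of the 7 was called higher and 1 lower, where 9.67% and 5.44% of all genes tested were. Aldh6a1 rose in LPS-MIC-1 against LPS by 1.55 (SE 0.0614, adjusted p = 2.07e-07), from 25.9 ± 1.46 to 76.2 ± 5.25 FPKM. Aldh18a1 fell by 1.16 (SE 0.220, adjusted p = 0.00218), from 3.05 ± 0.0839 to 1.36 ± 0.507 FPKM, and missed the fold threshold with a pseudocount of 1 (-0.80, adjusted p = 0.00154). Aldh6a1 was also called against control (1.55, adjusted p = 1.98e-07), as the only 1 of the 7, where 15.5% of all genes tested were called.

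Retinoid genes, which supply the substrate of the Aldh1a enzymes or bind and degrade their product, were taken from a list of 25, all found. In muscle 13 were tested, and between LPS-MIC-1 and LPS 0 were higher and 4 lower, with a median log2 difference of -0.42 against -0.01 over all genes, where 5.44% of all genes were called lower. Cyp26b1, which degrades retinoic acid, was highest in control and lowest in LPS-MIC-1. Its values were 6.62, 5.90 and 5.24 FPKM in control, 2.12, 2.05 and 1.64 in LPS and 0.176, 0.124 and 0.0293 in LPS-MIC-1, and no groups overlapped. It was lower by 1.57 in LPS than in control (SE 0.282, limma adjusted p = 0.00769) and by 3.34 in LPS-MIC-1 than in LPS (SE 0.282, adjusted p = 1.97e-05). The first call was lost with a pseudocount of 0.01 (-1.61, adjusted p = 0.0735), and the second difference ranged from -4.285 to -1.40 over the alternatives. The other 3 that fell were the retinoic acid receptors Rarb (-1.79, adjusted p = 0.00235), Rarg (-1.59, adjusted p = 2.1e-07) and Rara (-1.10, adjusted p = 0.0365), named after their values were seen.

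In cells 14 retinoid genes were tested, and LPS gave 4 higher and 1 lower against control, beside 10.9% and 10.0% of all genes. Rdh12, a retinol dehydrogenase, measured 0.351 ± 0.119 FPKM in control and 15.6 ± 1.27 in LPS, a log2 difference of 5.15 (SE 0.792). It passed the filter on level only through the LPS libraries, so this difference is a description and carries no test. Its call, counted above, was lost without any control or LPS library and without LPS-MIC-1 replicate 3. It was also lost under the replicate block and with a pseudocount of 0.01, with differences still between 4.94 and 5.49. In the libraries labelled LPS-MIC-1, Crabp2, which carries retinoic acid to its receptors, measured 66.8 ± 9.21 FPKM, against 0.279 ± 0.128 in LPS and 0.0465 ± 0.0403 in control.

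Of the enzymes of folate one-carbon metabolism, the pathway of Aldh1l2, 17 of a list of 18 were tested in the cells. Against control, LPS had 7 of them lower and 0 higher, where 10.0% and 10.9% of all genes tested were. Their median log2 difference was -0.86 where that of all genes was 0, and Aldh1l2 itself rose. Tyms, the thymidylate synthase, fell by 1.29 (SE 0.0813, limma adjusted p = 3.72e-06), from 10.5 ± 0.407 to 4.23 ± 0.111 FPKM. Mtr, the methionine synthase, fell by 1.19 (SE 0.191, adjusted p = 0.000738), a call that was lost without any control or LPS library, without LPS-MIC-1 replicate 2, under the replicate block and with a pseudocount of 0.01 (adjusted p from 0.00101 to 0.00419), with differences still between -1.23 and -1.16. Fpgs, which adds glutamate to folates, differed by -0.84 (SE 0.110, adjusted p = 0.000244), under the fold. In muscle 15 were tested. Mtr was higher in LPS-MIC-1 than in LPS by 1.29 (SE 0.119, adjusted p = 3.25e-05), with 4.06 ± 0.0563 against 1.61 ± 0.221 FPKM. Fpgs in LPS-MIC-1 was lower than in control by 1.04 (SE 0.107, adjusted p = 5.93e-05). With a pseudocount of 1 the fold threshold was missed by Mtr (0.96) and Fpgs (-0.93), and by Fpgs also without control replicate 1 (-0.98) or LPS-MIC-1 replicate 1 (-0.97).

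Alcohol dehydrogenases, aldehyde reductases and oxidases, which make or remove the same aldehydes, gave 1 higher and 4 lower of 16 tested between LPS and control in cells, beside 10.9% and 10.0% of all genes. Cbr2, a carbonyl reductase, fell by 2.41 (SE 0.149, adjusted p = 3.33e-06). In muscle 1 of 14 was called between LPS-MIC-1 and LPS, beside 15.1% of all genes. Xdh, xanthine dehydrogenase, rose by 1.16 (SE 0.0741, adjusted p = 3.56e-06), from 4.71 ± 0.215 to 10.6 ± 0.595 FPKM. Aox1, an aldehyde oxidase, was 4.72 ± 0.221 FPKM in LPS-MIC-1, 5.77 ± 0.366 in LPS and 11.1 ± 0.201 in control, and was lower in LPS-MIC-1 than in control by 1.22 (SE 0.0648, adjusted p = 1.11e-06). In the cell libraries labelled LPS-MIC-1 it measured 3.71 ± 1.43 FPKM, against 0.0609 ± 0.0352 in LPS and 0 in each control.

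The aryl hydrocarbon receptor, of which Aldh3a1 is a target, was followed through 10 genes of the receptor and its targets. In cells 7 were tested, with 2 higher and 0 lower between LPS and control, beside 10.9% and 10.0% of all genes. Between LPS-MIC-1 and LPS 4 were higher and 2 lower, beside 24.3% and 25.6%. Genes such as Nqo1, which passed the filter only through LPS-MIC-1, had to differ there, so nothing is read from that count. In the cells labelled LPS-MIC-1, Nqo1, a quinone reductase that is also a target of Nrf2, measured 196 ± 18.4 FPKM, against 0.188 ± 0.254 in LPS and 0.0122 ± 0.0211 in control. It was high in the same libraries as Aldh3a1, with the same limit from the marker genes. Tiparp, a target that restrains the receptor, was instead highest in LPS, with 67.7 ± 0.995 FPKM against 9.58 ± 0.101 in control and 15.5 ± 2.80 in LPS-MIC-1. Arnt, the partner of the receptor, differed from LPS by -2.495 (SE 0.0722). In muscle 4 were tested and 2 were called higher between LPS-MIC-1 and LPS, beside 9.67% of all genes. Tiparp rose by 2.09 (SE 0.0731, limma adjusted p = 9.87e-08), from 4.68 ± 0.261 to 20.3 ± 0.794 FPKM, and Arnt rose by 1.26 (SE 0.0667, adjusted p = 1.14e-06). Nqo1 differed in muscle by -0.27 (SE 0.123, adjusted p = 0.09) and Aldh3a1 stayed at the level of single reads.

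Aldh3a1 and Aldh3a2 are neighbours on mouse chromosome 11, and Aldh1a1 and Aldh1a7 on chromosome 19, with 0 protein-coding genes between the members of each pair in RefSeq annotation of GRCm38.p6. The neighbours did not move alike. In the cells labelled LPS-MIC-1 Aldh3a2 lay within or below the range of the other groups where Aldh3a1 was at its highest, and in muscle Aldh1a7 was highest in LPS where Aldh1a1 was highest in LPS-MIC-1.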

How the data were processed

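RNA was sequenced from 9 cell and 9 gastrocnemius libraries. The authors quantified reads with kallisto and tximport, and the deposited tables hold FPKM per gene. The submitters' processing notes name the build mm9, so RefSeq names and neighbours of GRCm38.p6 were used without positions. In the muscle table, 9 unnamed columns of values were not used. Nor were 6 tables of the authors' DESeq2 comparisons (base means, fold changes, p-values).

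Using limma 3.58.1 under R 4.3.3, each experiment was fitted separately. Values entered as log2(FPKM + 0.1), for genes with a mean over 1 FPKM, with 3 group means, eBayes with trend, 2-sided tests and Benjamini-Hochberg adjustment. A called gene had an absolute log2 difference over 1 and an adjusted p under 0.001 (cells) or 0.05 (muscle). The thresholds follow the study's methods. Low values lie on steps, taken as whole reads (largest distance from a whole number 0.149). Depth per library is unknown, and counting intervals are not given. In simulated data, 82.5% of 200 changed genes among 10877 were recovered for LPS against control in cells (0 wrong calls), and 93% among 9475 in muscle (7 wrong calls). The changed genes differed by 2 or 3 on the log2 scale, in either direction, so recovery of differences near 1 was not measured.

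Besides the 10 members, the text names the gene with the largest rise and largest fall among called genes of each list, called aldehyde dehydrogenases, and the genes most correlated with Aldh3a1 and Aldh1b1 in cells and with Aldh1a1 in muscle. A gene that this rule names is not reported here. The members, lists and tests were chosen with earlier results of these data known. Alternatives were other pseudocounts, filters and scalings, no trend, only the compared libraries, a replicate block, unadjusted p-values and leaving out each library. Python 3.11.15 and matplotlib 3.10.9 drew the figures.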

Additional observations from a re-analysis of the deposited data

Results flagged for a closer look

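Among 60 pairs of an aldehyde dehydrogenase and a comparison, 9 were marked because the groups did not overlap in either system and differed in opposite directions. Of all genes tested, 79.4% to 85.5% did not overlap in cells and 36.5% to 64.6% in muscle, depending on the comparison. The share of all genes that would be marked was not counted, so nothing is read from the 9. Most of the 9 used the cell libraries labelled LPS-MIC-1, which chose the members. The difference between the systems was not tested, since the tables were normalized separately, and the cells labelled LPS-MIC-1 differ from the other cell libraries in marker genes.

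Between LPS and control, Aldh1l2 was higher in LPS in the cells by 2.84 and lower in muscle by 0.46 on the log2 scale, a distance of 3.30. Aldh3a2 moved the same ways, by 0.39 and -0.68, a distance of 1.07.

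Between LPS-MIC-1 and LPS, Aldh3a1 was 12.17 higher in the cells and -0.80 in muscle, where it rests on single reads, a distance of 12.97. Aldh9a1 gave -2.06 in the cells and 0.78 in muscle, a distance of -2.84. For Aldh6a1, the valine-degrading enzyme, the values were -3.92 and 1.55, a distance of -5.47. In the cells labelled LPS-MIC-1 it held only 0.215, 1.57 and 0 FPKM. Aldh5a1, which oxidizes succinic semialdehyde, gave 0.97 in the cells and -0.81 in muscle, a distance of 1.78, although its level in the cells was too low to be tested.

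Between LPS-MIC-1 and control, Aldh1b1 gave -1.48 in the cells and 0.93 in muscle, a distance of -2.41. Its muscle values rested on at most 10 reads in any library. Aldh9a1 gave -2.24 and 0.72, a distance of -2.96. Aldh6a1 gave -3.13 and 1.55, a distance of -4.68.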

How the results depend on the processing

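Of the member counts, that between LPS-MIC-1 and LPS in muscle (2) depended on the settings: it was 1 with a pseudocount of 1 or a mean over 5 FPKM, 4 with no filter, and 1 to 2 when a library was left out. For LPS against control in cells it was 3 in place of 2 with a pseudocount of 1. Between LPS-MIC-1 and control in muscle it was 2 in place of 1 with no filter, and 1 without any library. Leaving out libraries gave 2 to 3 calls for LPS against control in cells, 5 for LPS-MIC-1 against LPS, 3 to 4 for LPS-MIC-1 against control, and 0 for LPS against control in muscle. Median-ratio scaling changed nothing because its factors were equal in all libraries (1.015 in cells, 1.006 in muscle). Quantile normalization moved the median of all genes between LPS-MIC-1 and LPS in muscle from -0.01 to -0.12.

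Same-numbered libraries did not deviate together (r from -0.0757 to 0.0573 in cells and from -0.054 to 0.0823 in muscle). With the replicate block the member counts were 2, 5 and 3 in cells and 0, 2 and 1 in muscle, as without it.

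Signs turned only for differences that were not called. Without a library, Aldh3a1 between LPS and control in cells ranged from -0.49 (without LPS replicate 3) to 2.40. Rdh12 between LPS-MIC-1 and control in cells was 0.13 with a pseudocount of 1 and ranged from -0.76 to 1.00 without a library. Under quantile normalization, LPS-MIC-1 against LPS in muscle gave -0.0113 for Aldh4a1, -0.1235 for Aldh7a1 and -0.0769 for Cbr2, and against control -0.0820 for Aldh2 and -0.0937 for Aldh4a1. Without a library, LPS against control in muscle ranged from -0.16 to 0.00805 for Aldh1a1, from -0.0394 to 0.0399 for Aldh6a1, from -0.17 to 0.0262 for Aldh16a1, from -0.0444 to 0.0344 for Arnt and from -0.12 to 0.0503 for Nqo1. LPS-MIC-1 against LPS in muscle ranged from -0.0535 to 0.115 for Aldh7a1 and from -0.0749 to 0.0710 for Cbr2. LPS-MIC-1 against control ranged from -0.280 to 0.0597 for Aldh3a2 and from -0.0295 to 0.0514 for Aldh4a1.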
